A study of Mus musculus with 12 samples.

Results

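Proteases, serpins and other protease inhibitors were followed across RNA and ribosome footprints of mouse mammary cells. The genes were taken by symbol: every serpin, kallikrein other than Klk10, cathepsin, matrix metalloproteinase, TIMP, ADAM, ADAMTS, Prss and Tmprss gene in the count table, together with St14, Htra1, Plat, Plau, Cst3 and Spint1. Of the 7318 listed genes, 29 met this rule. They were 10 cathepsins, 12 serpins, 3 membrane serine proteases, 2 ADAMs, 1 ADAMTS and the cystatin Cst3. No row was matched for the kallikreins, matrix metalloproteinases, TIMPs, Prss genes, Htra1, Plat, Plau and Spint1, which were not analysed here.

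All libraries came from FVB/N female mice, 4 weeks old, that carried the MMTV-Wnt1 and MMTV-iFgfr1 transgenes, so an active Wnt1 transgene was shared by every group. MMTV is a viral promoter that works mainly in mammary epithelium, and iFgfr1 encodes an inducible FGF receptor that signals when the compound AP20187 brings its copies together. Mice received vehicle or AP20187 by intraperitoneal injection 6 h before the glands were taken, and each of the 4 groups (RNA with vehicle, RNA with AP20187, footprints with vehicle, footprints with AP20187) held 3 libraries. All libraries came from glands 3, 4 and 5, digested with collagenase A at 1 mg/ml for 2 h at 37 °C, and cycloheximide was used at 100 µg/ml. Cells were enriched for epithelium by brief spins and were not sorted. The design had no AP20187 without the receptor, so effects of the compound and of FGFR1 signalling cannot be told apart, and the labels do not say whether animals were pooled.

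Cathepsins are mostly lysosomal proteases that degrade proteins taken up or recycled by the cell, and some are secreted and act on the matrix around it. Serpins are inhibitors that trap a serine or cysteine protease irreversibly. Serpins of clade A are secreted for the most part, those of clade B mostly stay in the cytoplasm, and Serpinh1 of clade H inhibits no protease but folds collagen. Membrane serine proteases and ADAMs cut proteins at the cell surface, where they activate or release growth factors and adhesion proteins. Balance between such proteases and their inhibitors shapes ductal growth and regression of the mammary gland.

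Most of the listed serpins lie in gene clusters whose copies resemble each other, and neighbouring copies gave different calls. For that reason the matching promoter stretches of these copies are shown first. The GENCODE M21 annotation of build GRCm38 (mm10) places Serpina1b at chr12:103728156-103830373, minus strand, and the 4 Serpina3 genes on the plus strand at chr12:104214544-104221129 (Serpina3f), chr12:104236245-104241939 (Serpina3g), chr12:104263122-104269372 (Serpina3i) and chr12:104406729-104414329 (Serpina3n). Gaps of 15115 bases between Serpina3f and Serpina3g and 21182 bases between Serpina3g and Serpina3i hold no other protein-coding gene. Of the 29 genes, 22 had a RefSeq promoter entry (GRCm38.p6), and the 250 bases upstream of the start were searched on both strands. The GAS motif TTCNNNGAA, the DNA element bound by STAT factors, stood in 7.02% of all 32851 promoters and in 5.83% of the 7277 promoters of listed genes. It stood in 7 of the 26 promoters of the 22 genes, which belong to 6 genes: Ctsc, Serpina3f, Serpina3g, Serpina3i, Serpinb6a and Serpinb9c. The promoter entries of Serpina3f overlap and hold the same site, which is counted in each. Serpina3f, Serpina3g and Serpina3i are gene copies whose sites align, so these matches are not separate observations. Capitals mark the motif in Serpina3f, Serpina3g and Serpina3i and the aligned bases in Serpina3n, all on the plus strand and read 5′ to 3′. Relative to Serpina3g, counted from 1 at the 5′ end of the capitals, Serpina3f carried C5T, which leaves the motif, and Serpina3n carried C3A, which does not.
Serpina3f, chr12:104214399-104214455: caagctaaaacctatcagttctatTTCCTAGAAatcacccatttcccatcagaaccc
Serpina3g, chr12:104236090-104236146: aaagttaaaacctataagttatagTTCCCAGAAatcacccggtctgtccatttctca
Serpina3i, chr12:104262996-104263052: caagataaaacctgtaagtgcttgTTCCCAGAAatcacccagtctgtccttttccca
Serpina3n, chr12:104406561-104406617: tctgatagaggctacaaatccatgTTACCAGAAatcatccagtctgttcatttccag

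A cluster of clade B serpins lies on chromosome 13, with Serpinb1a at chr13:32842092-32851185 (minus strand), Serpinb6b at chr13:32965209-32979067 (plus), Serpinb9 at chr13:33003250-33017957 (plus), Serpinb9c at chr13:33149275-33159742 (minus) and Serpinb6a at chr13:33917918-34002794 (minus). Serpinb5 stands apart at chr1:106861173-106883348. Serpinb9 and Serpinb9c, copies 131317 bases apart, are compared because their RNA changed in opposite directions. The ISRE motif, the element bound by interferon regulatory factors, was searched as GAAA, any 2 bases and GAAA again. It stood in 2.98% of all promoters, in 2.35% of those of listed genes and in 3 of the 26 promoters, of Ctss, Serpinb6a and Serpinb9. In Serpinb9 it begins 46 bases upstream of the RefSeq start on the opposite strand, so the capitals show its reverse complement. That RefSeq start and the motif lie inside the GENCODE bounds of Serpinb9 given above. Serpinb9c carried C4T at the aligned place, counted from 1 at the 5′ end of the capitals, and the motif was not matched there. The same Serpinb9c promoter held a GAS match 188 bases upstream of the start. These matches are descriptions of letters only.
Serpinb9, chr13:33004471-33004528, plus strand: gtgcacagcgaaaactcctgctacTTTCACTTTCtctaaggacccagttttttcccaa
Serpinb9c, chr13:33159874-33159931, minus strand: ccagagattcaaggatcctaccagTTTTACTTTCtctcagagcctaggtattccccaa

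The motif TCACGTGA, called CLEAR and known from lysosomal genes, stood in 0.785% of all promoters, in 1.72% of those of listed genes and in 2 of the 26 promoters, of the cathepsin genes Ctsa and Ctsd. The AP-1 motif TGANTCA stood in 6.75% of all promoters, in 4.31% of those of listed genes and in 2 of the 26 promoters, of Serpina1b and Serpinb5.

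RNA libraries held between 94513818 and 251874393 counts over the listed genes and footprint libraries between 1772969 and 11018709. The 29 genes took between 0.46% and 0.573% of RNA counts and between 0.454% and 0.712% of footprint counts. Levels are given as CPM, counts relative to the library total, with library sizes scaled by the TMM method, so changes are relative to the other listed genes. A floor of 3 counts was worth 0.0119 to 0.0317 CPM in RNA and 0.272 to 1.69 CPM in footprints, which covers counting error only. Across genes, replicate RNA libraries correlated with r between 0.959 and 0.987, and replicate footprint libraries with r between 0.883 and 0.967. Changes below are log2 AP20187 over vehicle ± SE from edgeR's quasi-likelihood test, 2-sided, with Benjamini-Hochberg adjustment over all genes tested and a threshold of 0.05. The p-values rest on variation among these libraries only, and some of it may be technical.

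With AP20187, most of the cathepsins and membrane proteases that changed in RNA rose, and nearly all serpins that changed fell. Of the 29 genes, 6 (20.7%) rose, against 12.4% of all 7314 genes tested, and 10 (34.5%) fell, against 13.9%. In either direction, 26.2% of all genes passed. The AP20187 and vehicle libraries did not overlap for 20 of the genes: 8 (27.6%) lay higher with AP20187, against 21.9% of all genes, and 12 (41.4%) lay lower, against 23%. The median change of the 29 genes was -0.29, against 0.01 over all genes. In unsorted cells, fewer cells of a type and less RNA per cell cannot be told apart. Without vehicle library 1 or vehicle library 3, 1 gene passed as higher, and 5 passed as lower without vehicle library 3. Over all genes, 307 then passed as higher and 410 as lower without vehicle library 1, and 247 and 291 without vehicle library 3. In the main fit these counts were 906 and 1013.

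**Figure D1:**
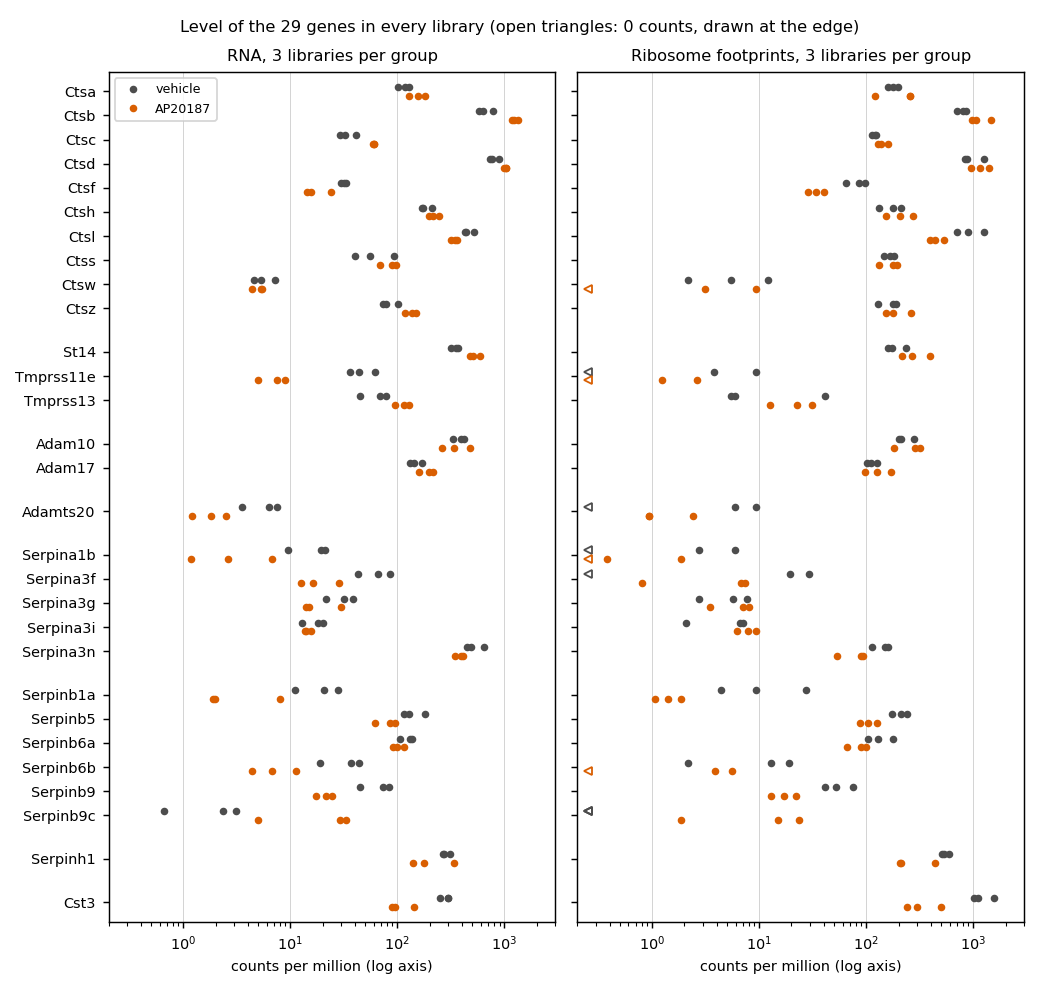
Level of the 29 genes in every library, in CPM on a log axis, for RNA (left) and ribosome footprints (right); each point is 1 library, grey for vehicle and orange for AP20187, and open triangles at the edge mark 0 counts. Serpinb9c in RNA lay between 0.655 and 3.09 CPM with vehicle and between 5.01 and 32.9 CPM with AP20187, and it had no footprint in any vehicle library.

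Among the lysosomal proteases, Ctsb, Ctsc and Ctsz rose and Ctsf fell, while 6 of the 10 cathepsins did not pass the test. Ctsb, a cysteine protease that acts both inside and at the ends of proteins, stood at 625, 778 and 576 CPM with vehicle and at 1336, 1233 and 1175 CPM with AP20187, a change of 0.92 ± 0.17 (adjusted p = 0.00951). Every AP20187 library lay above every vehicle library. Ctsc, which activates the serine proteases of immune cell granules, stood at 29.001, 40.8 and 32.5 CPM and at 60.7, 60.4 and 58.6 CPM, a change of 0.81 ± 0.16 (adjusted p = 0.0115). Its AP20187 values lay close together and above all 3 vehicle values. Ctsz, a carboxypeptidase, stood at 77.7, 102 and 74.1 CPM and at 149.5, 136 and 118 CPM, a change of 0.67 ± 0.16 (adjusted p = 0.0222), again without overlap. Ctsf, a cysteine protease, was nearly level among the vehicle libraries at 30.0, 33.1 and 31.6 CPM and stood at 15.6, 24.2 and 14.3 CPM with AP20187, a change of -0.81 ± 0.22 (adjusted p = 0.0317). AP20187 library 2 lay nearest to the vehicle range, and still below it.

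Ctsd, the aspartic protease of the lysosome, had the highest vehicle RNA level of the 29 genes both in CPM and per kilobase of exon. Its values were 765, 880.3 and 735 CPM with vehicle and 1027, 1029.9 and 980.4 CPM with AP20187, a change of 0.35 ± 0.14 that did not pass (adjusted p = 0.102) although the groups did not overlap. For Ctsa, a serine carboxypeptidase that stabilises other lysosomal enzymes, the change was 0.43 ± 0.16 (adjusted p = 0.0791), also without overlap. Ctsl, a broad cysteine endopeptidase, stood at 427, 435 and 516 CPM and at 318, 346 and 364 CPM, a change of -0.42 ± 0.14 just outside the threshold (adjusted p = 0.0566). Ctsh, an aminopeptidase, Ctss, which trims the invariant chain in antigen-presenting cells, and Ctsw, known from cytotoxic lymphocytes, had changes between -0.17 and 0.43 with overlapping groups. The median over the 10 cathepsins was 0.39. Of 11 macrophage markers 3 were listed, and their summed RNA ranged from 29.6 to 39.4 CPM with vehicle and from 32.3 to 43.8 CPM with AP20187, so these ranges overlapped. Of these 3 markers Itgam rose, by 1.01 ± 0.27 (adjusted p = 0.0310), from a mean of 9.09 to 18.3 CPM, and none fell. Of the 9 listed luminal markers 7 rose and 1 fell. The sum of the 9 listed luminal markers of 14 ranged from 4167 to 5215 CPM with vehicle and from 7212 to 9441 CPM with AP20187, and none of the listed markers of either type was at 0 throughout. What these cell types contributed to the cathepsin changes was not tested. The Ctsb call held under all 11 alternative settings, while those of Ctsc and Ctsz were lost without vehicle library 1 or 3, that of Ctsz also without AP20187 library 1, and that of Ctsf when any library but AP20187 2 was left out.

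Membrane serine proteases moved in both directions. St14 encodes matriptase, an epithelial protease that activates other proteases and growth factor precursors. It stood at 369, 356 and 314 CPM with vehicle and at 589, 511 and 473 CPM with AP20187, a change of 0.60 ± 0.15 (adjusted p = 0.0222). Tmprss13, a related membrane-anchored protease, stood at 68.1, 78.7 and 44.6 CPM and at 128, 114 and 95.04 CPM, a change of 0.82 ± 0.22 (adjusted p = 0.0302). Both were higher in every AP20187 library than in any vehicle library. Tmprss11e, another member of this family, went the other way, from 43.9, 35.7 and 62.2 CPM with vehicle to 7.54, 8.83 and 4.93 CPM with AP20187. Its change of -2.73 ± 0.29 (adjusted p = 0.00571) was the largest fall among the 29 genes, and every vehicle value was several times every AP20187 value. Tmprss11e passed under all 11 alternatives, whereas St14 and Tmprss13 did not pass without vehicle library 1, vehicle library 3 or AP20187 library 1.

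The metalloproteinases gave 1 call. Adam10 and Adam17, the main sheddases of Notch receptors and of EGF receptor ligands, had log2 differences of -0.07 ± 0.22 (adjusted p = 0.825) and 0.35 ± 0.16 (adjusted p = 0.130), and their groups overlapped. Adam10 was uneven with AP20187, at 479.7, 261 and 340.3 CPM against 393, 330.5 and 415 CPM with vehicle. Adamts20, a secreted protease needed for the spread of pigment cells in skin, was the least abundant of the 29 genes per kilobase. It stood at 7.57, 3.52 and 6.35 CPM with vehicle and at 1.20, 2.49 and 1.82 CPM with AP20187, a change of -1.67 ± 0.40 (adjusted p = 0.0211). The groups did not overlap, and the call was lost with a replicate block and without vehicle library 1, vehicle library 3 or AP20187 library 1.

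Of the 12 serpins, 6 fell, 1 rose and 5 did not pass, and 11 had a change below 0, with a median of -0.73. In clade A, 2 of 5 fell and none rose, and all 5 changes were below 0. Serpina1b, a copy of antitrypsin, the main plasma inhibitor of elastase, stood at 9.46, 19.5 and 21.3 CPM with vehicle and at 2.62, 6.79 and 1.17 CPM with AP20187, a change of -2.25 ± 0.60 (adjusted p = 0.0300). Serpina3f, like the other Serpina3 genes a mouse relative of antichymotrypsin, stood at 42.9, 65.2 and 86.0 CPM and at 28.6, 16.4 and 12.5 CPM, a change of -1.75 ± 0.35 (adjusted p = 0.0124). In both genes vehicle library 1 was the lowest vehicle value and still above all AP20187 values. Serpina3g, which blocks cathepsins in the cytoplasm, stood at 21.7, 31.8 and 38.2 CPM and at 29.8, 14.8 and 13.9 CPM with overlapping groups and a change of -0.65 ± 0.33 (adjusted p = 0.177). Serpina3i had a log2 difference of -0.23 ± 0.21 (adjusted p = 0.442). Serpina3n, a secreted inhibitor of granzyme B, was the most abundant serpin, with 448, 488 and 644 CPM with vehicle and 393, 410.1 and 346 CPM with AP20187. Its change of -0.46 ± 0.17 did not pass (adjusted p = 0.0814), although the groups did not overlap.

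Whether Serpina3f fell more than its neighbours was not tested. Copies in this cluster share sequence: of the 28-base windows in the coding part of the transcript, 66.1% in Serpina1b, 45.7% in Serpina3i, 45.2% in Serpina3f, 39.3% in Serpina3n and 32.9% in Serpina3g also occur in transcripts of other genes. Serpina3f shares 25.8% of its 28-base windows with Serpina3g. With 50-base windows the shares in other genes were 47.1% in Serpina1b, 27.9% in Serpina3i, 17.8% in Serpina3f, 11.1% in Serpina3n and 12.2% in Serpina3g. How the deposited counts treat such reads is not given in the sources used here, so the split between copies is uncertain. The Serpina1b call was lost without vehicle library 2, vehicle library 3 or AP20187 library 1, and that of Serpina3f with a replicate block (adjusted p = 0.0522).

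Clade B held both the largest rise and 4 falls. Serpinb1a, an inhibitor of neutrophil elastase and related proteases, stood at 11.1, 20.8 and 27.9 CPM with vehicle and at 1.91, 7.98 and 1.98 CPM with AP20187, a change of -2.33 ± 0.61 (adjusted p = 0.0271). Serpinb6b, a copy of the intracellular inhibitor Serpinb6a, stood at 19.1, 36.7 and 43.5 CPM and at 6.79, 11.2 and 4.37 CPM, a change of -2.15 ± 0.41 (adjusted p = 0.0108). In both, AP20187 library 2 was the highest of its group and did not reach the vehicle values. Serpinb9, which protects cells from granzyme B, stood at 44.4, 73.3 and 84.0 CPM and at 21.4, 24.4 and 17.3 CPM, a change of -1.68 ± 0.25 (adjusted p = 0.00688). Serpinb5, also called maspin and known from myoepithelial cells, stood at 115, 127 and 182 CPM and at 61.7, 85.9 and 94.7 CPM, a change of -0.81 ± 0.22 (adjusted p = 0.0319). Neither gene had overlapping groups. Serpinb6a, at 107, 131 and 136 CPM and 91.6, 99.4 and 115 CPM, overlapped between the groups, with a log2 difference of -0.29 ± 0.15 (adjusted p = 0.176).

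Serpinb9c, a copy of Serpinb9, was the only serpin that rose. It stood at 2.37, 3.09 and 0.655 CPM with vehicle and at 29.3, 5.01 and 32.9 CPM with AP20187, a change of 3.45 ± 0.77 (adjusted p = 0.0169). AP20187 library 2 was well under the other AP20187 libraries and only a little above the highest vehicle library. The call was lost with a replicate block (adjusted p = 0.0840) and without vehicle library 1 (0.0515) or vehicle library 3 (0.0538), with the change between 3.04 and 3.93 over all 11 alternatives. Of the 28-base coding windows of Serpinb9c, 32.6% also occur in the pseudogene Gm11385, which was not analysed here. The shared portion was 22.3% in Serpinb1a, 17.6% in Serpinb6b, 16% in Serpinb6a, 12.5% in Serpinb9 and 0 in Serpinb5. With 50-base windows it was 31.3% in Serpinb9c, 5.79% in Serpinb1a, 6.19% in Serpinb6b, 3.75% in Serpinb6a, 1.21% in Serpinb9 and 0 in Serpinb5. Serpinb6b and Serpinb9 passed under all 11 alternatives, Serpinb1a did not without vehicle library 2, vehicle library 3 or AP20187 library 1, and Serpinb5 did not without vehicle library 3 or AP20187 library 1.

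**Figure D2:**
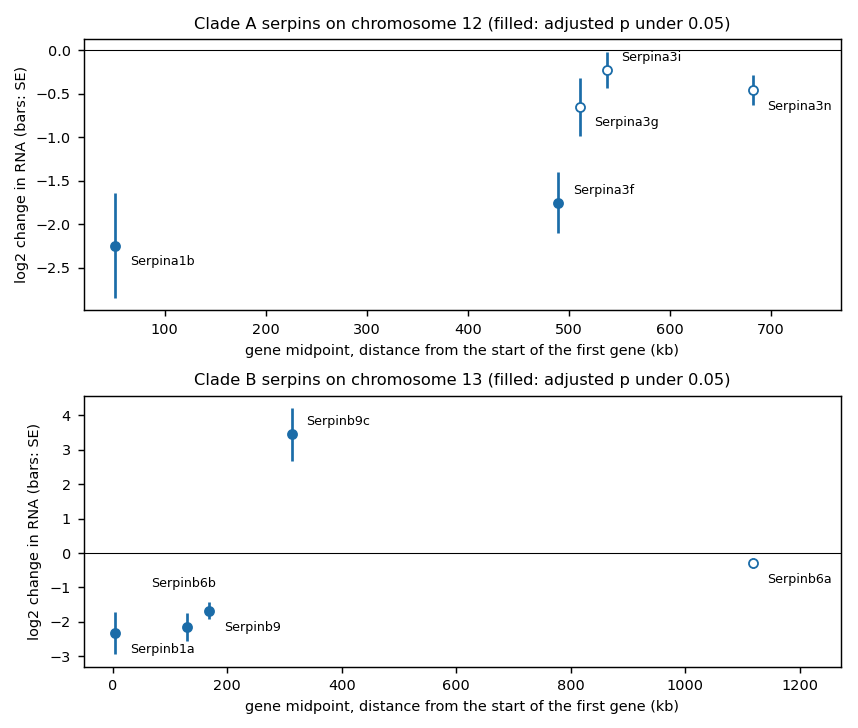
Log2 change in RNA (AP20187 over vehicle, bars are SE, 3 libraries per group) of clade A serpins on chromosome 12 and clade B serpins on chromosome 13 against the distance of the gene's midpoint from the start of the first gene in kb; filled points have an adjusted p under 0.05. Serpinb9c stands at 3.45 between Serpinb9 at -1.68 and Serpinb6a at -0.29, and all 5 clade A points lie below 0.

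Serpinh1, the collagen chaperone, ranged from 139 to 335 CPM among the AP20187 libraries, a span that took in all vehicle values (273, 269.6 and 312 CPM), and its change of -0.39 ± 0.29 did not pass (adjusted p = 0.347). Cst3 encodes cystatin C, a secreted inhibitor of cysteine cathepsins, and lies at chr2:148871722-148875692 on the minus strand. It stood at 248, 299 and 296 CPM with vehicle and at 94.5, 143 and 89.3 CPM with AP20187, a change of -1.37 ± 0.20 (adjusted p = 0.00664). No AP20187 library came near the vehicle range, and the call held under all 11 alternatives.

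Markers of stromal cells moved with the genes that fell: 5 of 6 listed fibroblast, 5 of 5 endothelial, 3 of 4 adipocyte and 4 of 4 mast cell markers fell in RNA and none rose. The summed RNA of the 6 listed fibroblast markers of 11 ranged from 3347 to 5826 CPM with vehicle and from 1252 to 1702 CPM with AP20187. For the 5 listed endothelial markers of 9 the ranges were 608 to 818 CPM and 336 to 371 CPM, for the 4 adipocyte markers of 10 they were 259 to 496 CPM and 47.0 to 101 CPM, and for the 4 mast cell markers of 11 they were 11.6 to 39.9 CPM and 0.838 to 2.19 CPM. The 12 basal epithelial markers, all listed, gave 6 falls and 1 rise and summed to between 5475 and 6451 CPM and between 2822 and 4394 CPM. Luminal progenitor markers, 9 of 12 listed, went the other way with 8 rises and no fall, from between 2636 and 8852 CPM to between 21704 and 31263 CPM. Neutrophil markers, 4 of 8 listed, gave 1 rise and 3 falls and summed to between 3.94 and 23.9 CPM and between 24.4 and 58.5 CPM. Of the lymphocyte markers only Ptprc was listed, 1 of 10, with 27.97 to 82.8 CPM and 21.7 to 39.8 CPM. The labels call these mammary epithelial cells, and luminal and basal marker sums were high in every library, beside those of fibroblasts. No listed marker was at 0 in every library, and the part of these cell types in the changes of the proteases and inhibitors was not tested. Among the AP20187 libraries, library 2 had the highest fibroblast, endothelial, adipocyte and mast cell sums and lay nearest to vehicle in 8 of the 10 genes that fell. Among the vehicle libraries, library 2 had the lowest fibroblast (3347 CPM), endothelial (608 CPM) and adipocyte (259 CPM) sums, and library 1 the lowest mast cell sum (11.6 CPM). Library 1 lay nearest to AP20187 in 8 of these 10 genes, library 2 in 2 and library 3 in 0.

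**Figure D3:**
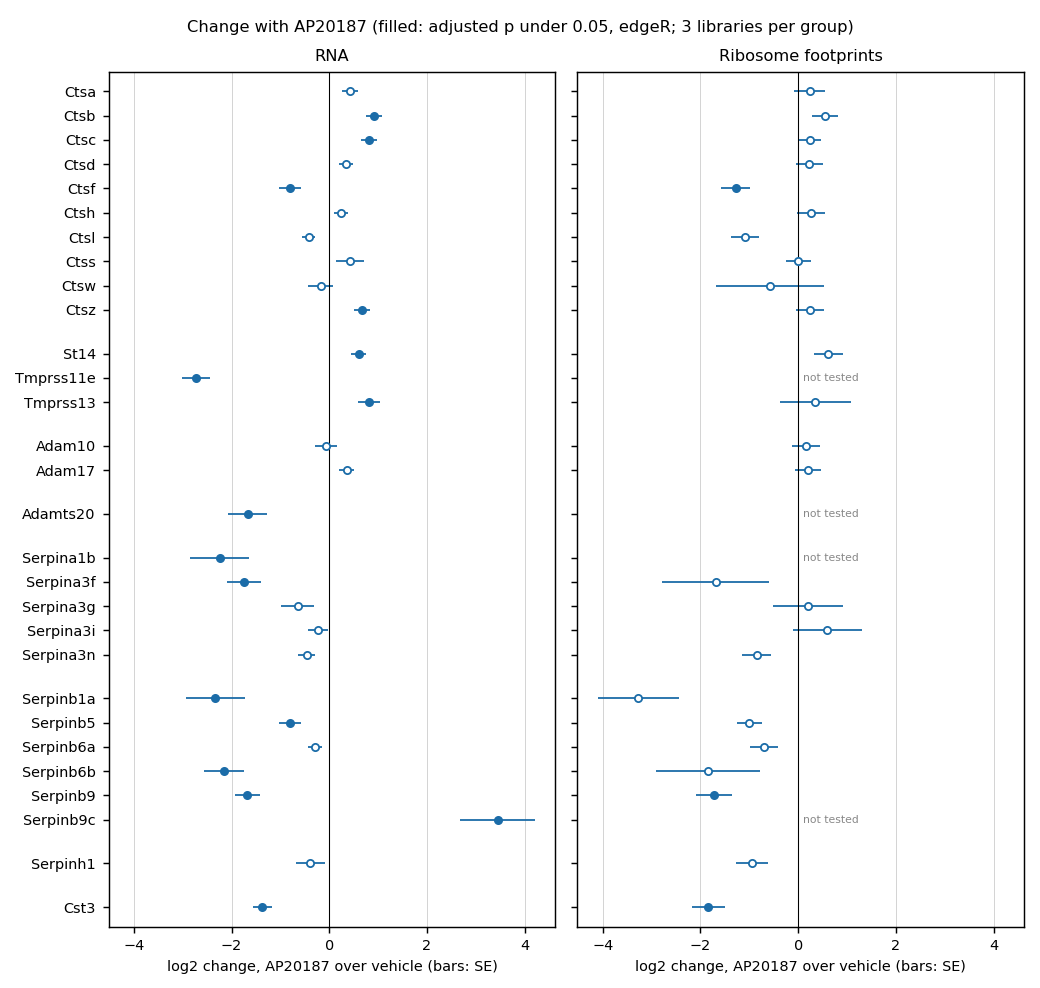
Log2 change with AP20187 ± SE in RNA (left) and ribosome footprints (right) for the 29 genes, 3 libraries per group, with filled points where edgeR's adjusted p is under 0.05 and "not tested" where counts were too low. Of 25 genes tested in footprints, Cst3 at -1.84, Serpinb9 at -1.72 and Ctsf at -1.28 are filled.

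Ribosome footprints, the fragments of RNA covered by ribosomes, gave fewer calls. Of the 29 genes 25 could be tested, and Adamts20, Serpina1b, Serpinb9c and Tmprss11e had too few counts. None rose, against 0.937% of the 7041 genes tested, and 3 fell (12%), against 1.6%, with 2.54% of all genes passing in either direction. Cst3 stood at 1105, 1007 and 1550.3 CPM with vehicle and at 296, 497 and 242 CPM with AP20187, a change of -1.84 ± 0.34 (adjusted p = 0.0237). Serpinb9 stood at 40.9, 52.2 and 75.0 CPM and at 17.0, 21.9 and 12.8 CPM, a change of -1.72 ± 0.36 (adjusted p = 0.0382). Ctsf stood at 86.1, 65.2 and 97.2 CPM and at 34.0, 40.6 and 28.8 CPM, a change of -1.28 ± 0.29 (adjusted p = 0.0457). In these 3 genes every AP20187 library lay below every vehicle library, as it did in 9 (31%) of the 29 genes, against 11.3% of all genes. In 3 (10.3%), against 12%, every AP20187 library lay above. All 3 calls were lost when any vehicle library or AP20187 library 1 was left out, and without AP20187 library 3 the Cst3 call alone was left. Calls over all genes dropped as well, to 0 higher and 0 lower without vehicle library 1 or 2. They were 3 and 0 without vehicle library 3, and 2 and 0 without AP20187 library 1. The Ctsf call was also lost without AP20187 library 2 (adjusted p = 0.0625) and with no filter on low counts (0.0508), so it did not survive leaving out any single library.

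Deviations of same-numbered footprint libraries correlated across treatments, and with the number as a block, an alternative setting, 7 genes fell and none rose. Over all 7041 genes tested, the block raised the calls from 66 to 353 higher and from 113 to 362 lower. The 4 additional falls were Ctsl at -1.05 (adjusted p = 0.0114), Serpinb5 at -1.002 (adjusted p = 0.00859), Serpinh1 at -1.04 (adjusted p = 0.0164) and Serpina3n at -0.87 (adjusted p = 0.0438). Ctsl footprints were 901, 701 and 1272 CPM with vehicle and 529.9, 435 and 397 CPM with AP20187. Serpinb5 footprints were 175, 211 and 239 CPM and 103, 125 and 88.0 CPM, and those of Serpina3n 112, 150.0 and 159 CPM and 93.4, 89.3 and 53.0 CPM. These groups were separate in each gene, also for Serpinh1 with 514, 529 and 595 CPM and 212, 443 and 206 CPM. Serpinb1a had the lowest estimate, -3.27 ± 0.83, which passed neither without the block (adjusted p = 0.0680) nor with it (0.0738). Summed footprints of the listed fibroblast markers lay between 11318 and 30623 CPM with vehicle and between 3096 and 4699.65 CPM with AP20187, and their part in these falls was not tested.

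Serpinb9c had 0 footprint counts in each of the 3 vehicle libraries and 23.6, 1.85 and 14.9 CPM with AP20187. Against a floor of 3 counts over the vehicle group, worth 0.399 CPM, the AP20187 mean of 13.5 CPM was at least 33.7-fold higher. This bound on the mean covers counting error only, not the spread among libraries. It was 21.01-fold without AP20187 library 1 and 16.5-fold without vehicle library 3. AP20187 library 2 was again the lowest of its group. The gene was too thinly counted for the edgeR fit with a filter, and it passed as higher with DESeq2 and with no filter. Ctsb and Ctsc, which rose in RNA, had changes of 0.55 ± 0.27 (adjusted p = 0.340) and 0.24 ± 0.23 (adjusted p = 0.691) in footprints, with no overlap between the groups in either gene.

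For translational efficiency, the footprint level of a gene over its RNA level, 0 of the 29 genes passed the test of a change with AP20187, and 0% of all 7315 genes passed in edgeR. At this footprint depth and with 3 libraries per group, the absence of a call does not show that the ratio stayed the same. The members gave 2 unadjusted p-values under 0.05 in edgeR and in limma voom and 3 in DESeq2, and no adjusted call in any of these tools. Over all genes, 350 unadjusted p-values were under 0.05 in edgeR, and DESeq2 called 8 genes higher and 2 lower. Ctsc had the smallest p, with footprints over RNA of 4.15, 2.77 and 3.78 in the vehicle replicates and 2.62, 2.26 and 2.18 in the AP20187 replicates, and a change of -0.63 ± 0.25 (unadjusted p = 0.0259, adjusted p = 0.988). For Ctsl the ratios were 2.11, 1.61 and 2.47 and 1.67, 1.26 and 1.09, a change of -0.72 ± 0.33 (unadjusted p = 0.0453, adjusted p = 0.988). Ctsc ratios did not overlap between the groups, and Ctsl ratios did. The next smallest p-values belonged to Serpinb9c, whose vehicle ratio had no footprint, to Ctsf at -0.52 ± 0.35 and to Serpina3i at 0.82 ± 0.56. All 10 cathepsins had an estimate below 0, median -0.45 against -0.08 over all genes, of which 57.6% lay below 0. With RLE or DESeq2 scaling the estimate was below 0 for 9 of the 10, and without vehicle replicate 1 for 7. This was not particular to cathepsins. The median was -0.38 over 33 other lysosomal genes. It was -0.58, -0.40 and -0.24 over the listed fibroblast, endothelial and luminal markers, whose highest estimates were -0.05, -0.24 and -0.08. Medians above 0 were those of the mast cell (0.20) and neutrophil (0.03) markers.

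**Figure D4:**
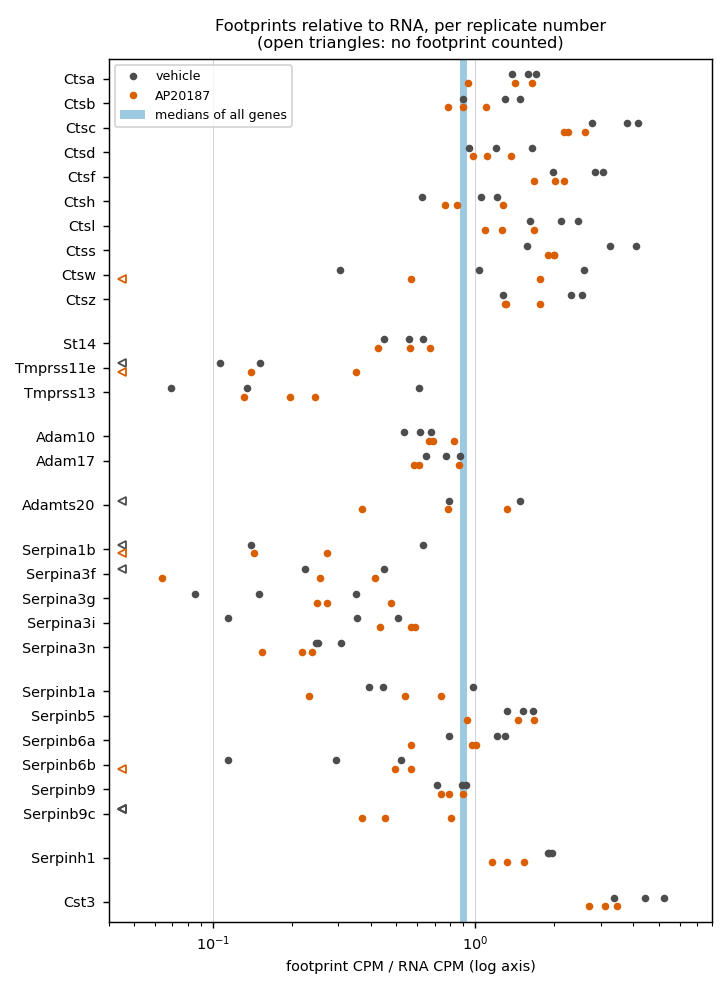
Footprint CPM over RNA CPM on a log axis for each of the 29 genes and each replicate number, grey for vehicle and orange for AP20187; open triangles mark replicates with no footprint, and the blue band spans the medians over all genes (0.877 to 0.925). Cst3, Ctsc and Ctsf lie to the right of the band in all 6 replicates, and the Serpina3 genes lie to its left.

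Before activation, the 29 genes spread widely in footprints relative to RNA, with cathepsins at the upper end and clade A serpins at the lower end. In the comparison of footprint with RNA libraries in vehicle, 9 genes (31%) were higher in footprints, against 24.2% of 7306 genes tested, and 9 (31%) were lower, against 25.7%. In either direction 49.9% of all genes passed. Cst3 was the highest, with 4.45, 3.36 and 5.23 as its replicate ratios and a log2 difference of 2.20 ± 0.23 (adjusted p = 9.89e-05). Ctsc followed at 1.88 ± 0.20, then Ctsf at 1.47 ± 0.23, Ctss at 1.47 ± 0.30 and Ctsl at 1.14 ± 0.25 (adjusted p = 1.17e-04, 6.72e-04, 0.00294 and 0.00436). Of the 10 cathepsins, 6 were higher and none was lower. The other genes higher in footprints were Ctsz, Ctsa, Serpinh1 and Serpinb5.

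At the lower end, 4 of the 5 clade A serpins and all 3 membrane serine proteases had fewer footprints than RNA. Tmprss11e had ratios of 0, 0.107 and 0.151 in the vehicle replicates, a log2 difference of -3.16 ± 0.67 (adjusted p = 0.00376). Serpina3n had ratios of 0.251, 0.307 and 0.248, a log2 difference of -1.82 ± 0.22 (adjusted p = 2.17e-04). Its 3 ratios lay close together. Serpina1b, Serpina3g and Tmprss13 differed by -2.66 ± 0.89, -2.42 ± 0.42 and -1.84 ± 0.67 (adjusted p = 0.0321, 0.00140 and 0.0444). Tmprss13 varied among the vehicle replicates from 0.0690 to 0.608. Serpina3g rested on 14, 5 and 22 footprint counts in the vehicle libraries. Serpinb9c, with no vehicle footprint and 2.04 CPM of RNA, had a ratio of at most 0.196, or at most 0.282 to 0.350 when vehicle replicate 1, 2 or 3 was left out. The count of lower genes was 5 with limma voom and 2 without vehicle replicate 2. The share of 28-base coding windows found in other genes was 32.9% to 66.1% in the clade A serpins and 0 in Tmprss11e and Tmprss13, and its part in these ratios was not tested. Library chemistry and the counted region also differ between the assays, so these ratios cannot be read as translation rates.

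Levels of different genes can be compared only per length. In vehicle RNA, Ctsd led with 337 ± 32.6 CPM per kilobase of exon (SD, n = 3), followed by Serpina3n at 255 ± 50.05, Cst3 at 222 ± 22.6, Serpinh1 at 117 ± 9.66 and Ctsb at 109 ± 17.4. Ctsd did not overlap with the next gene, while Serpina3n overlapped with Cst3 and Serpinh1 with Ctsb. The lowest were Serpinb9c at 1.02 ± 0.626 and Adamts20 at 0.646 ± 0.231, which overlapped each other. In vehicle footprints per kilobase of coding sequence the order changed, with Cst3 at 2906 ± 690 ahead of Ctsl at 951 ± 287, Ctsd at 805 ± 192 and Ctsb at 774 ± 78.3. Part of the exon bases of some genes is shared with other genes: 907 bases of Ctsd with Gm49369 on the same strand, 1545 bases of Ctsb with Fdft1 on the opposite strand, 2126 bases of Serpinb6a with neighbours that include the listed Ripk1, and 2137 bases of Ctsl. Their values are uncertain to that extent, since the strand setting and the treatment of shared reads are not given. Strand cannot separate Ctsd from Gm49369, or Ctsl from the pseudogene Gm49230, which lie on the same strand. Of the 28-base coding windows of Ctsd, 65% also occur in Gm49369.

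Other genes of these pathways changed in both directions in RNA. Over all 7314 genes tested, 12.4% rose and 13.9% fell. Of 5 listed genes of the plasminogen and clotting system, none rose and 3 fell: Procr, the protein C receptor, at -1.92 ± 0.25 (adjusted p = 0.00590), Lrp1, an endocytic receptor for protease-inhibitor complexes, at -0.91 ± 0.27 (0.0389) and Anxa2, which binds plasminogen at the cell surface, at -0.56 ± 0.16 (0.0365). Of 7 other protease inhibitors, 4 fell and 1 rose, with the inter-alpha-trypsin inhibitor heavy chains Itih4 at -2.20 ± 0.30 (0.00625), Itih3 at -2.18 ± 0.33 (0.00704) and Itih5 at -1.53 ± 0.31 (0.0131). Of 33 lysosomal genes other than cathepsins, 6 rose and 4 fell, with a median of 0.13. Igf2r, the receptor that sorts enzymes to the lysosome, rose by 0.94 ± 0.18 (0.0106), Lipa, the lysosomal acid lipase, rose by 1.07 ± 0.20 (0.0111), and Gla, a galactosidase, fell by 1.06 ± 0.20 (0.0111).

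Of 16 convertases and extracellular peptidases, 3 rose and 8 fell. The falls include the 4 listed mast cell markers already counted above. Anpep, an aminopeptidase of the cell surface, rose by 1.63 ± 0.23 (adjusted p = 0.00657), and the mast cell protease genes Tpsb2 (-4.37 ± 0.65, adjusted p = 0.00685) and Cpa3 (-4.18 ± 0.58, adjusted p = 0.00625) fell. Of 9 ADAM regulators and shed growth factor genes, 3 rose and none fell. Tspan14 and Tspan15, tetraspanins that accompany Adam10, rose by 0.82 ± 0.15 (0.00920) and 1.10 ± 0.25 (0.0195), and Frmd8, a stabiliser of the Adam17 complex, rose by 0.69 ± 0.14 (0.0119). In footprints, these lists gave no rise and 1, 1, 1, 3 and 0 falls in the same order, out of 5, 6, 33, 15 and 9 genes tested. Over all 7041 genes tested in footprints, 0.937% rose and 1.6% fell.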

How the data were processed

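RNA and ribosome footprint libraries, 3 per group, were analysed from raw counts of reads per gene symbol, which the authors deposited in a single table without normalization. The submitters' processing notes name HTSeq, STAR, Bowtie2, cutadapt and bcl2fastq (1.8.3) and the mm10 build. Their settings (strand, multiply mapped reads, the region counted for footprints) and the choice of the 7318 genes were not given in the sources used here. Genes were scaled by TMM, filtered by filterByExpr and tested across the whole table with edgeR 4.0.16 in R 4.3.3 (Benjamini-Hochberg adjustment, threshold 0.05): treatment within RNA, treatment within footprints, their interaction over all 12 libraries (translational efficiency), and footprints against RNA in vehicle. SE were derived from the F statistic. Alternatives were DESeq2 1.42.0, limma 3.58.1 (voom), RLE scaling, no filter, a replicate block and leaving out each library. The procedure was tested on simulated counts. No 2 libraries held identical values.

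The replicate numbers come from the sample titles. Deviations of same-numbered libraries from their group means correlated at 0.152, 0.256 and 0.334 between the footprint groups and at 0.182, -0.0503 and -0.0989 between the RNA groups. Same-numbered RNA and footprint libraries correlated in the same way at 0.0588, 0.0831 and 0.321 with vehicle and at 0.425, 0.508 and 0.358 with AP20187. The main fits within RNA and within footprints took treatment only, and the replicate number entered as a block in an alternative. The main fits of translational efficiency and of the vehicle ratio also left out the number. Ratios per replicate assume that same-numbered RNA and footprint libraries belong together. RNA library totals fell from number 1 to number 3 in both treatments, while footprint totals shared no such order. Whether a number marks a shared batch was not tested. The genes, the pathway and marker lists and the motifs were chosen with earlier results of these data known. Genes are named where they passed the threshold (in the vehicle ratio the 5 highest and 5 lowest), where they had the smallest p if none passed, or as the most abundant of their kind, and up to 3 per pathway list; others were added to complete each family. Gene positions, lengths and the 28-base and 50-base windows of the longest coding transcript come from GENCODE M21, and promoters from RefSeq.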

Additional observations from a re-analysis of the deposited data

How the results depend on the processing

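All 16 RNA calls kept their direction under the 11 alternatives, and Tmprss11e, Serpinb6b, Serpinb9, Cst3 and Ctsb passed in each. When 1 library was left out, the number of the 29 genes that rose in RNA ranged from 1 to 7 and the number that fell from 5 to 11; the lowest values came without vehicle library 3, and the low count of rises also without vehicle library 1. Without AP20187 library 1 the counts were 3 and 6. In footprints, DESeq2 gave 1 rise and 6 falls, no filter on low counts gave 1 rise and 2 falls (the rise was Serpinb9c in both, and Ctsf lost its call without the filter), and the replicate block gave 7 falls. Leaving out 1 footprint library gave 0 to 1 rises and 0 to 3 falls. In the vehicle ratio, limma voom gave 5 lower genes, and leaving out 1 replicate number gave 2 to 9. The replicate block gave 5 rises and 8 falls in RNA and ended 3 RNA calls (Serpinb9c, Serpina3f and Adamts20). Deviations of same-numbered RNA libraries had correlations of mixed sign, and the labels do not say what a number marks. The block gave 10 lower genes in the vehicle ratio and changed no call in translational efficiency. No result reversed, and why a call was lost was not tested. Each RNA fit with 1 library left out held the same number of samples. Over all genes, 1048 rose and 1166 fell in RNA without AP20187 library 2, and 247 and 291 without vehicle library 3. Footprint depth limits what can be seen in Serpina1b, Serpina3g, Serpina3i, Serpinb9c, Tmprss11e, Adamts20 and Ctsw, which had 11.98 CPM or less in every vehicle library.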
